A study of Mus musculus with 23 samples.

Results

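Ribosome footprints from the small intestine of mice with an Lgr5-driven deletion of Rptor were compared with those of control mice, in 6 of the 23 libraries analysed across the series. These 6 were taken by their labels, as 3 WT mice and 3 Rptor fl/fl mice profiled in vivo. Rptor encodes Raptor, the subunit that gives the kinase complex mTORC1 its substrates. Both groups were C57BL/6 mice that carried Lgr5Cre.ERT2, a tamoxifen-activated Cre recombinase expressed from the Lgr5 locus, and RPL22.HA, a Cre-dependent epitope tag on a large-subunit ribosomal protein. By their labelled genotypes the groups differed in the Rptor fl/fl allele. The labels call all animals untreated, whereas the methods describe mice of 8 to 12 weeks and 1 tamoxifen injection given 24 h before collection. The whole small intestine was frozen, ground and lysed, tagged ribosomes were pulled down with an antibody to HA, and the protected fragments were sequenced. The question was what Rptor loss does to ribosome association in Lgr5-positive intestinal stem cells (ISCs), and the epithelial programmes other than glycolysis and the fetal-like state are described here. No RNA-seq of the same mice was analysed, so every value is a level of ribosomal occupancy and not a translation efficiency.

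The intestinal epithelium is renewed from Lgr5-positive stem cells at the crypt base. Their progeny divide in the crypt and become absorptive enterocytes or secretory cells, which are the Paneth, goblet, enteroendocrine and tuft cells. Paneth cells sit between the stem cells and release antimicrobial peptides. mTORC1 promotes protein synthesis, above all of mRNAs that begin with a 5′ terminal oligopyrimidine (TOP) tract, which encode the ribosomal proteins and several translation factors. It also acts on sterol and fatty acid synthesis and restrains lysosome formation and autophagy.

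The libraries held 772077, 2151821 and 5337092 footprints in the WT mice and 3085617, 3416458 and 8238388 in the Rptor fl/fl mice, so WT mouse 1 was the least precise. Levels are given below as CPM (counts scaled to the same library size, with a correction for library composition), in the order mouse 1, 2 and 3 of each group. Rptor (chr11:119602905-119899576, GRCm38) was at 41.7, 39.7 and 44.8 CPM in the WT mice against 32.6, 34.4 and 36.9 in the Rptor fl/fl mice, a log2 fold change of −0.28 (95% interval −0.55 to −0.02) that missed the threshold (adjusted p = 0.15). The groups did not overlap for Rptor, but the same held for 3584 of all 11515 genes tested. Most footprints on Rptor remained in the pulled-down material. Lgr5 itself was at 11.4, 7.76 and 8.77 CPM in the WT mice and at 45.8, 8.53 and 6.32 in the Rptor fl/fl mice, so Rptor fl/fl mouse 1 stood apart from the other 5 libraries.

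The labelled target population was checked against defining markers on a length-corrected scale, the mean CPM per kb over the 6 libraries. Lgr5 was at 5.02 CPM per kb, Ascl2 at 6.26 and Olfm4, an abundant crypt-base glycoprotein, at 240. By contrast, the enterocyte gene Apoa1 was at 14590, the Paneth gene Defa24 at 10560, the goblet gene Muc2 at 2216 and the plasma cell gene Igha at 9006. The smooth muscle gene Myh11 was at 99.5, the acinar gene Cela1 at 330 and the T cell gene Cd3e at 13.9. Stem cell markers were therefore present but not dominant, and the libraries are described as tissue-level footprints after pulldown. In such bulk material a change in the number of cells of a type and a change in ribosomal occupancy per cell cannot be told apart.

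Libraries of 1 group were alike. Between 2 libraries of the same group the chi-square statistic per gene, which is 1 for sampling noise alone, was 1.55 to 6.31, and between libraries of different groups it was 6.89 to 20.6. This statistic grows with depth, which differed between libraries. The rank correlation over all genes (Spearman) overlapped, at 0.956 to 0.9829 within groups and 0.9417 to 0.9755 between groups. For immunoglobulin V genes, whose use by plasma cells usually differs between individual mice, the chi-square statistic was 3.54 to 12.3 within and 58.4 to 186 between groups. Whether the 3 libraries of a group are as independent as separate animals was not tested. The labels number the mice but give no litter, collection day or sequencing run, so the p-values measure the spread between these libraries, and a batch that went with genotype cannot be told apart from the genotype.

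Of 11515 genes tested, 7.47% had more footprints in the Rptor fl/fl mice and 5.97% had fewer (860 and 687 genes at adjusted p under 0.05, edgeR quasi-likelihood test, Benjamini-Hochberg over all genes tested). The median log2 fold change of all tested genes was −0.02. Changes of 2-fold or more were seen for 165 of the genes that rose and 161 of those that fell. These background shares and this median are the reference for each gene group below. The count depended on single libraries: it was lowest without Rptor fl/fl mouse 2, at 517 higher and 380 lower, and without WT mouse 3 it was 536 and 389, whereas 1095 and 859 were called without Rptor fl/fl mouse 1. The plot of log2 fold changes by gene group shows that the Paneth, proliferation and ribosomal protein genes lay mostly below 0 and the mucosal defence, cholesterol and lysosome genes mostly above it.

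**Figure D1:**
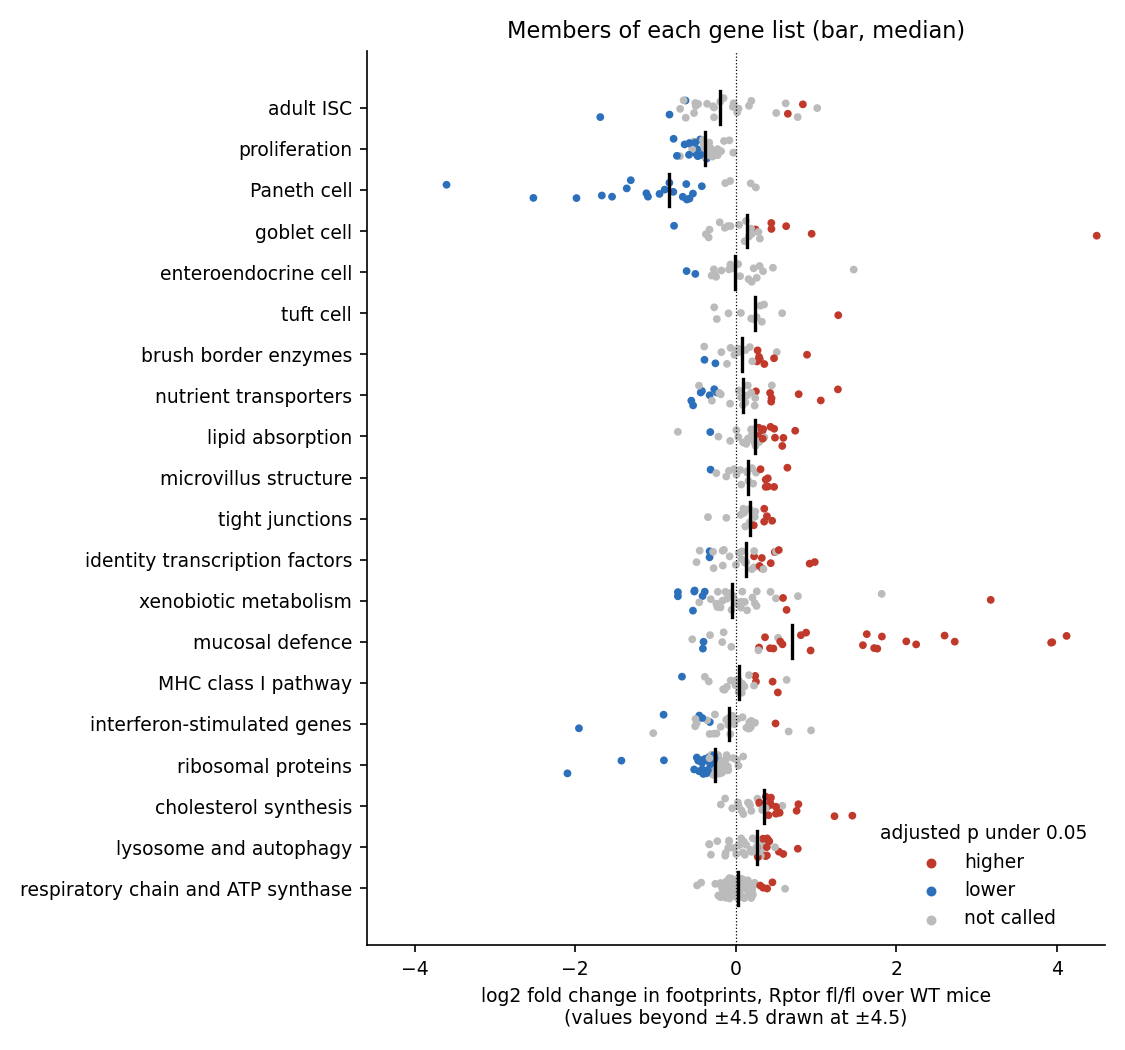
Log2 fold change in footprints (Rptor fl/fl over WT mice, x axis) of each tested member of 20 gene lists (y axis), with genes called higher in red, called lower in blue and not called in grey, and a bar at the list median; Retnlb lies beyond the axis and is drawn at its edge. Paneth cell genes, with near-identical defensin copies counted as separate genes, had a median of −0.83. Mucosal defence genes had one of 0.70, against −0.02 for all tested genes.

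Among the individual genes, Retnlb gave the largest rise that did not rest on shared sequence. It encodes RELMβ, an antimicrobial protein secreted by goblet cells (chr16:48816856-48818892). The 3 WT mice had 0, 2 and 1 footprints on it, and the Rptor fl/fl mice had 179, 264 and 680. The level was 222 times higher by the summed footprints, with a counting interval of 75.9 to 1080 (edgeR log2 fold change 7.61, SE 0.36, adjusted p = 1.37e-09). Every Rptor fl/fl library lay far above every WT library. Meltf, which encodes an iron-binding membrane protein, had no footprint in any WT mouse and 11, 11 and 28 in the Rptor fl/fl mice, at least 9.9-fold higher when 3 footprints over the WT group are taken as the floor (adjusted p = 0.000534). Cyp1a1, a xenobiotic-metabolising enzyme induced through the aryl hydrocarbon receptor, was at 0, 0.457 and 1.83 CPM against 13.2, 13.1 and 9.98 (log2 fold change 3.18, adjusted p = 6.97e-05). Serpinb2, a protease inhibitor, had 0, 4 and 2 footprints against 23, 28 and 39 (log2 fold change 3.15, adjusted p = 0.00129), a call lost without WT mouse 3. The remaining genes of the 10 largest rises were S100a8, S100a9 and Saa2, described with mucosal defence, and 3 whose sequence is largely shared with other genes. Of the 30-base words of Gm10031, 93.8% also occurred in other genes, and its log2 fold change summed with Csnk2a1 was 0.20 (adjusted p = 0.146). Gm28035 shared 95% of its words, and its sum with Phyhd1, Lrrc8a and Gm28038 gave 0.29 (adjusted p = 0.287). The third such gene, Hist1h4m, rose by itself (log2 fold change 5.06), but the summed Hist1h4 family was slightly lower in the Rptor fl/fl mice (−0.21, adjusted p = 0.0399). The authors' counting could split such footprints between copies, so these 3 rises are uncertain.

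The largest fall was that of Muc6, a gel-forming mucin of the stomach and of duodenal Brunner's glands. It was at 15.2, 14.6 and 75.3 CPM in the WT mice and at 0, 0.913 and 0.253 in the Rptor fl/fl mice (log2 fold change −6.83, SE 0.79, adjusted p = 3.08e-05). The groups were far apart, but WT mouse 3 was also far above the other WT mice. Grin2c, an NMDA receptor subunit gene on the chromosome that also carries Rptor (chr11:115249169-115267243), was at 134, 119 and 57.5 CPM against 0.659, 3.35 and 1.26 (log2 fold change −5.84, adjusted p = 8.76e-08). Car1, a carbonic anhydrase of colonic epithelium and red cells, was at 30.3, 26.02 and 22.1 CPM against 1.32, 0.913 and 0.379 (log2 fold change −5.06, adjusted p = 4.92e-08). Pcbp4, an RNA-binding protein gene, was at 48.0, 57.5 and 35.1 CPM against 2.97, 1.83 and 3.66 (log2 fold change −3.87, adjusted p = 6.67e-08). Gm11027, a short gene model with 26.6% of its words shared, fell too, by 3.44 on the log2 scale. The immunoglobulin lambda segments Iglj1 and Iglc1, made by B and plasma cells, fell by 3.38 and 3.33, and the clock output gene Dbp fell by 3.13. Xndc1 (−4.00), 44.4% of whose words occur in other genes, and Defa32 (−3.60), with 100% shared, are uncertain.

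**Figure D2:**
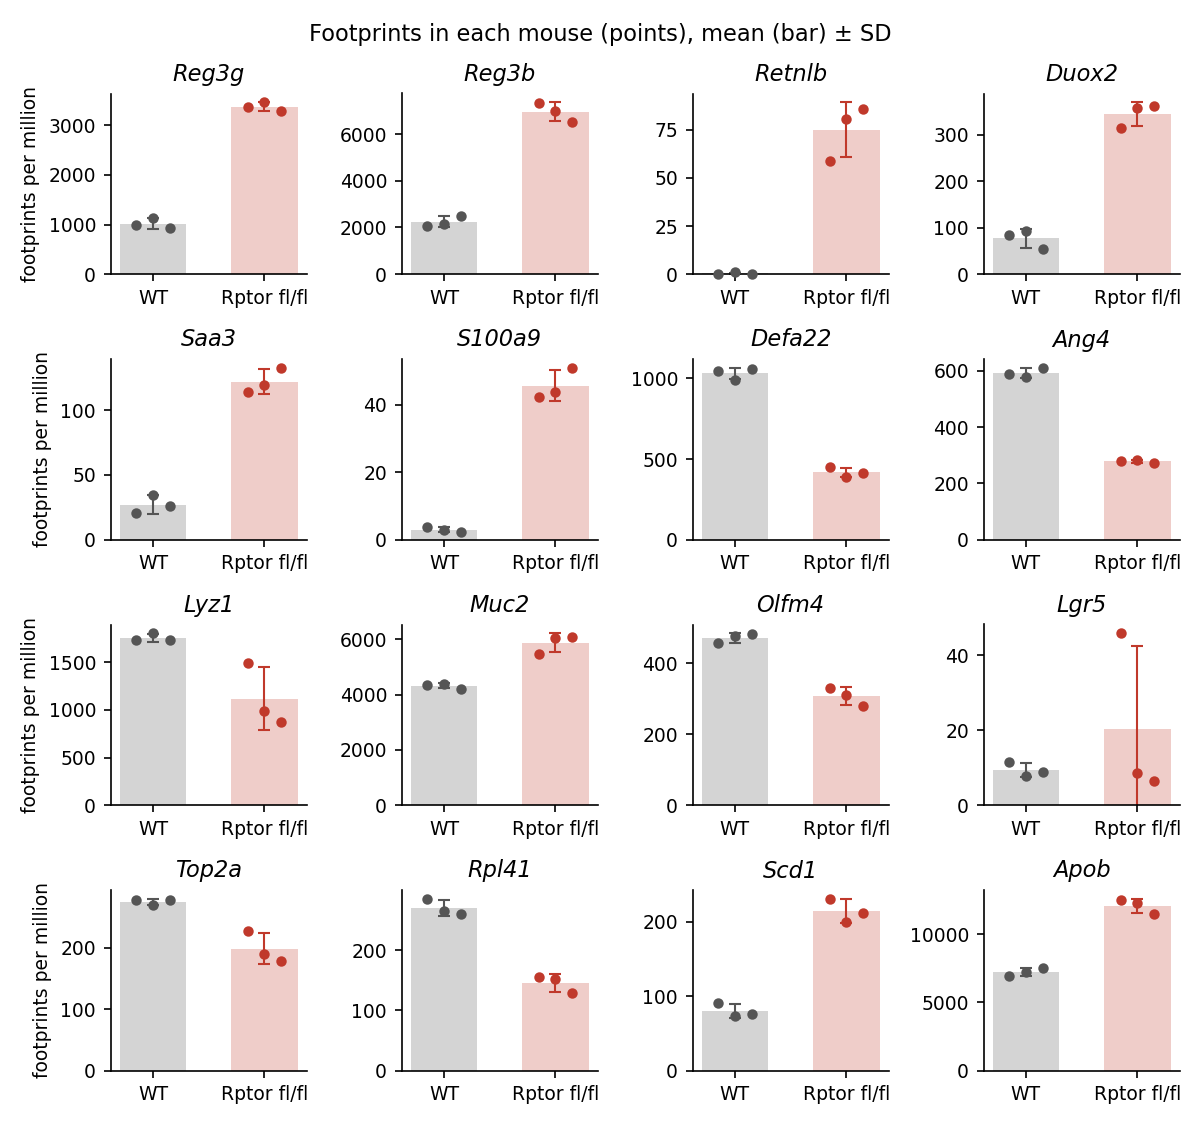
Footprint level in CPM (y axis, each panel with its own scale from 0) of 16 genes in the WT and Rptor fl/fl mice (x axis), with a point for each of the 3 mice of a group, a column for the mean and a line for the SD. Retnlb was near 0 in each WT mouse and at 59.0, 80.4 and 85.9 in the Rptor fl/fl mice, and Lgr5 was high in Rptor fl/fl mouse 1 only.

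Few stem cell genes were called. Of 29 adult ISC genes tested, 2 rose (6.9% against 7.47% of all genes) and 3 fell (10.3% against 5.97%), with a median of −0.19. Olfm4 was at 456, 477 and 482 CPM in the WT mice and at 332, 310 and 280 in the Rptor fl/fl mice (log2 fold change −0.63, SE 0.08, adjusted p = 6.29e-05). Ascl2, the transcription factor that sets stem cell identity downstream of Wnt, was at 10.1, 9.13 and 6.94 CPM against 4.61, 2.13 and 1.64 (log2 fold change −1.69, adjusted p = 0.00765). Both genes were separated by group in all 6 libraries, but the call of Ascl2 was lost without WT mouse 2 or Rptor fl/fl mouse 3. Cdca7 also fell (−0.83), although its groups overlapped. Cd44, a hyaluronan receptor of crypt cells, was at 22.8, 29.7 and 31.1 CPM against 60.0, 54.8 and 45.1 (log2 fold change 0.84, adjusted p = 0.00126), and Prom1 rose by 0.65 (adjusted p = 0.0427), a call lost without any one WT mouse. Smoc2, a matrix protein of stem cells, followed Lgr5, with 107 CPM in Rptor fl/fl mouse 1 against 36.2 and 31.0 in the other Rptor fl/fl mice and 20.2, 27.4 and 38.9 in the WT mice (log2 fold change 0.77, adjusted p = 0.217). Summed over all listed ISC genes, tested or not, as in the sums that follow, the level was 1433, 1469 and 1490 CPM in the WT mice and 1740, 1203 and 1128 in the Rptor fl/fl mice. The direction of the sum thus depended on Rptor fl/fl mouse 1, and without it 9 of the ISC genes were called lower and the median was −0.51. Without WT mouse 2 or Rptor fl/fl mouse 3, only 1 was.

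Among 17 tested Wnt feedback genes and targets, 1 rose and 2 fell (median 0.06). Ctnnb1, which encodes β-catenin, rose from 956, 1021 and 1047 CPM to 1254, 1377 and 1398 (log2 fold change 0.41, adjusted p = 0.00107). The proto-oncogene Myc (−0.48, adjusted p = 0.0263) and the cyclin gene Ccnd2 (−0.51, adjusted p = 0.000702) fell, but Myc was not called with DESeq2 or without WT mouse 3 or Rptor fl/fl mouse 2. Of 20 Notch pathway genes, 3 rose and none fell (median 0.02). They included Ncstn (0.29) and Adam10 (0.32), parts of the proteolytic machinery that releases the Notch intracellular domain, and not ligands, receptors or target genes. At most 2 of these 3 were called when any single library was left out, and 1 with DESeq2.

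Proliferation genes were lower as a group. Of 40 tested, 16 fell (40% against 5.97% of all genes) and none rose, and the log2 fold change was negative for all 40, with a median of −0.39. Their summed level was 2062, 2194 and 2149 CPM in the WT mice and 1805, 1597 and 1562 in the Rptor fl/fl mice, without overlap. Uhrf1, which maintains DNA methylation behind the replication fork, fell by 0.64 on the log2 scale (adjusted p = 0.000626). Top2a, the topoisomerase of dividing cells, was at 278, 269 and 278 CPM against 227, 190 and 179 (log2 fold change −0.48, adjusted p = 0.00246). Cenpf, Hells and Stmn1, which act at the kinetochore, on chromatin and on microtubules, fell by 0.77, 0.73 and 0.58. The replicative helicase genes Mcm2, Mcm3, Mcm5, Mcm6 and Mcm7 were among the 16 as well. The number called depended on the setting: 8 genes were called with DESeq2, 9 with mouse number as a block, 5 without WT mouse 2 or WT mouse 3, and 4 without Rptor fl/fl mouse 2 or 3, against 20 without Rptor fl/fl mouse 1.

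Paneth cell genes had the highest share of falls among the epithelial lists. Of 23 tested, 19 fell (82.6%) and none rose, with a median of −0.83. The α-defensins (Defa genes, antimicrobial peptides in a cluster on chromosome 8) are near-identical copies. The share and the median above count each copy as a separate gene, and they were not worked out without the copies. The footprints of the Defa genes were therefore also summed. The 19 Defa genes together held 19340, 19570 and 19930 CPM in the WT mice and 10670, 9126 and 9332 in the Rptor fl/fl mice, a log2 fold change of −1.02 (SE 0.07, 95% interval −1.16 to −0.87, adjusted p = 5.18e-08). The sum removes the split of footprints among these 19 genes, but not any split with similar gene models outside them. Single members with called falls were Defa21 (−1.54), Defa22 (−1.31), Defa5 (−1.36) and Defa36 (−1.11), each with 84.6% or more of its words shared. Ang4, an antimicrobial ribonuclease of Paneth and goblet cells, was at 589, 577 and 611 CPM against 280, 281 and 272 (log2 fold change −1.09, adjusted p = 4.03e-08). Lyz1, the Paneth lysozyme, was at 1738, 1807 and 1734 CPM against 1492, 985 and 871 (log2 fold change −0.66, adjusted p = 0.00537). Nupr1 (−0.95) and Pnliprp2 (−0.42) fell as well. Not every Paneth gene did so. Mptx2 was at 263, 279 and 261 CPM against 274, 248 and 244 (adjusted p = 0.626), and Mmp7, the protease that activates α-defensins, at 162, 167 and 185 against 185, 145 and 148 (adjusted p = 0.458). Itln1, an intelectin, was uneven within the Rptor fl/fl group, at 3430 CPM in Rptor fl/fl mouse 1 against 1188 and 1181 in the other Rptor fl/fl mice. The 19 calls ranged from 17 to 22 when single libraries were left out and were 15 with DESeq2.

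**Figure D3:**
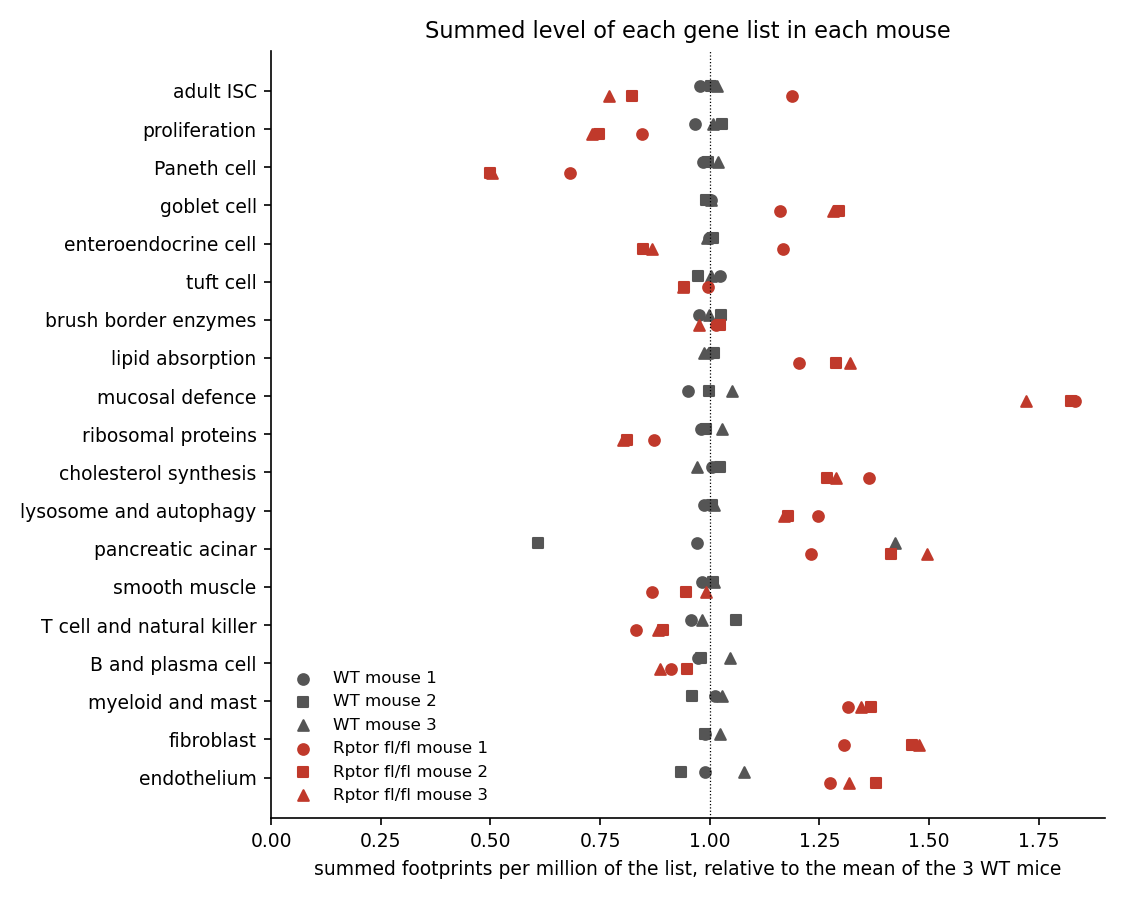
Summed CPM of the members of each gene list in each mouse, divided by the mean of the 3 WT mice (x axis, 1 is that mean), for 19 lists (y axis), with grey symbols for WT mice, red for Rptor fl/fl mice and the symbol shape for the mouse number. Rptor fl/fl mouse 1 (circle) lay above the WT mice for the adult ISC and enteroendocrine lists while mice 2 and 3 lay below them, and the 3 WT mice differed most for the pancreatic acinar list.

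Of 22 goblet cell genes tested, 6 rose and 1 fell (median 0.15). Muc2, the main gel-forming mucin, was at 4346, 4389 and 4215 CPM in the WT mice and at 5478, 6059 and 6093 in the Rptor fl/fl mice (log2 fold change 0.45, SE 0.06, adjusted p = 0.000236). Clca1, a mucus-processing protease, had a log2 fold change of 0.63 (adjusted p = 7.00e-06), and for Zg16, a lectin of the mucus layer, it was 0.44 (adjusted p = 0.00023). Fcgbp, a mucin-binding protein, rose by 0.25, and the chemokine gene Ccl9 rose by 0.95 with overlapping groups. Retnlb, the sixth, was far above these in fold but at a much lower level. Scin, an actin-severing protein, was the gene that fell (−0.77, adjusted p = 2.71e-06). The trefoil peptide gene Tff3 was at 1160, 1061 and 1097 CPM against 1104, 1231 and 1284 (adjusted p = 0.29). The calls numbered 4 to 9 when single libraries were left out, highest without Rptor fl/fl mouse 1 and lowest without WT mouse 2 or Rptor fl/fl mouse 2.

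Of 20 enteroendocrine genes tested none rose and 2 fell, and the median was −0.01. Gip, the gene of a hormone that K cells release after a meal, was at 94.8, 88.1 and 103 CPM against 72.1, 60.9 and 70.0 (log2 fold change −0.50, adjusted p = 0.00385), and Ghrl, which encodes ghrelin, fell by 0.61 (adjusted p = 0.0161). Both calls were lost without WT mouse 3. The granule proteins Chga and Chgb were highest in Rptor fl/fl mouse 1, at 154 and 245 CPM, and did not pass the test. Of 12 tuft cell genes tested only Alox5ap, needed for leukotriene synthesis and also made by myeloid cells, rose (2.53, 6.85 and 4.93 CPM against 13.2, 12.5 and 12.5, log2 fold change 1.28, adjusted p = 0.00269). That call was lost without WT mouse 3. The tuft marker Dclk1 was at 13.9, 15.5 and 16.8 CPM against 17.5, 18.6 and 19.6, a difference that missed the threshold (adjusted p = 0.415).

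Mucosal defence genes had the highest median of the 44 lists. Of 30 tested, 21 rose (70% against 7.47% of all genes) and 2 fell, with a median of 0.70. The C-type lectins Reg3b and Reg3g, bactericidal proteins of enterocytes and secretory cells, had the smallest adjusted p-values of the list. Reg3b (chr6:78370657-78373466) was at 2060, 2160 and 2500 CPM in the WT mice and at 7351, 7002 and 6538 in the Rptor fl/fl mice, 3.10-fold higher (log2 fold change 1.63, SE 0.08, adjusted p = 1.83e-09). Reg3g (chr6:78466269-78468872) was at 992, 1135 and 933 CPM against 3363, 3470 and 3286, 3.31-fold higher (log2 fold change 1.73, SE 0.08, adjusted p = 1.02e-09). The lowest Rptor fl/fl library was well above the highest WT library for both genes.

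The dual oxidase Duox2, which makes hydrogen peroxide at the apical surface, rose together with the gene of its maturation factor Duoxa2. Duox2 was at 84.7, 93.1 and 53.5 CPM against 315, 357 and 362 (log2 fold change 2.25, adjusted p = 8.72e-08) and Duoxa2 at 13.9, 7.31 and 6.94 against 44.1, 48.1 and 50.5 (log2 fold change 2.60, adjusted p = 1.76e-07). Nos2, the inducible nitric oxide synthase, rose by 0.81. The serum amyloid A genes, acute-phase proteins that bind retinol and lipid, all rose. Saa1 was at 7.58, 21.9 and 9.86 CPM against 103, 73.1 and 87.3, Saa2 at 2.53, 0 and 0.548 against 6.92, 12.2 and 9.73, and Saa3 at 20.2, 34.7 and 26.3 against 114, 119 and 133. Their log2 fold changes were 2.73, 3.95 and 2.13. Lcn2, which withholds iron from bacteria, rose by 1.82 (adjusted p = 5.79e-06).

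Other members of the list also rose. Gsdmc4, a gasdermin, was at 34.1, 46.1 and 47.9 CPM against 117, 136 and 151 (log2 fold change 1.59, adjusted p = 3.55e-07). Gsdmc2 (0.93), Gsdmd (0.43), the inflammatory caspase gene Casp4 (0.47) and the nucleic acid sensor Zbp1 (0.88) rose as well. So did the polymeric immunoglobulin receptor Pigr (0.29), the anti-flagellar protein Lypd8 (0.56), the transglutaminase Tgm2 (0.58), Ido1 (0.37) and the interleukin-1 antagonist Il1rn (1.76). The 2 that fell were Reg1 (−0.41), another lectin, and Nlrp6 (−0.40), an inflammasome sensor. When single libraries were left out 17 to 20 of the genes were still called higher, and 18 with DESeq2.

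The calprotectin genes S100a8 and S100a9 are made chiefly by neutrophils and monocytes. S100a9 was at 3.79, 2.74 and 2.37 CPM against 42.2, 43.9 and 51.0, 17.4-fold higher (log2 fold change 4.12, adjusted p = 4.33e-09), and S100a8 rose by 3.93. The list of myeloid and mast cell markers, which includes S100a9 itself, was higher in part. Of its 19 genes tested, 9 rose and none fell (median 0.51). Cd14 (1.93), Itgam (0.71), Lyz2 (0.52) and the mast cell protease Mcpt1 (1.80) were among those that rose. The summed level of that list was 597 to 640 CPM in the WT mice and 819 to 851 in the Rptor fl/fl mice. Without the calprotectin genes the mucosal defence rise consists of 19 genes. The part of myeloid cells in it was not tested.

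**Figure D4:**
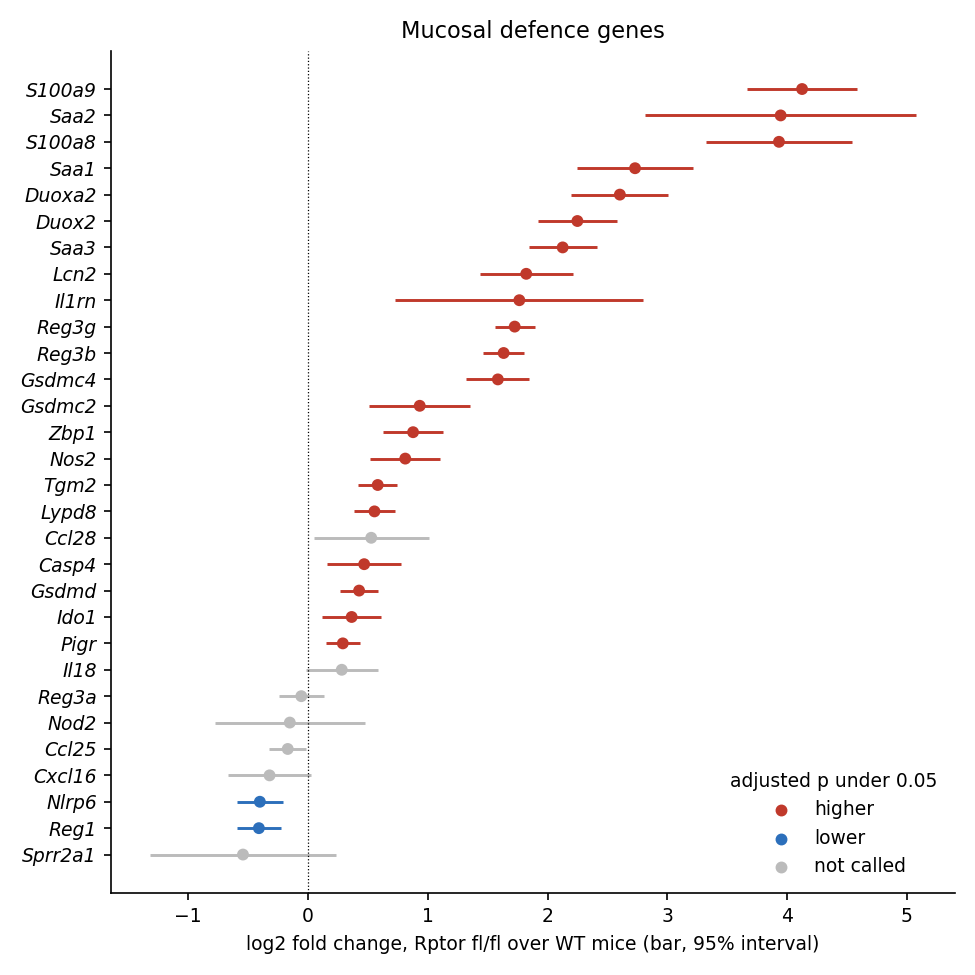
Log2 fold change (x axis, Rptor fl/fl over WT mice) with its 95% interval for the 30 tested mucosal defence genes (y axis), with genes called higher in red, called lower in blue and not called in grey. The 21 called rises ran from 0.29 (Pigr) to 4.12 (S100a9).

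Enterocyte genes were described by function. Of 22 brush border enzymes, 7 rose and 2 fell (median 0.08). Enpp3, a nucleotide pyrophosphatase, was at 587, 607 and 650 CPM in the WT mice and at 1179, 1151 and 1097 in the Rptor fl/fl mice (log2 fold change 0.89, adjusted p = 3.79e-07). The peptidases Mep1b (0.48), Mme (0.30) and Mep1a (0.29) rose, as did Alpi, intestinal alkaline phosphatase (0.27), and Enpp7, alkaline sphingomyelinase (0.27). Sis, the sucrase-isomaltase that completes starch digestion, fell from 6333, 6962 and 6455 CPM to 5730, 5039 and 4313 (log2 fold change −0.39, adjusted p = 0.0073), and Cubn, a receptor for vitamin uptake, fell by 0.25. The call of Sis was lost without WT mouse 2. Without WT mouse 1 or Rptor fl/fl mouse 2 the rises numbered 3, and without WT mouse 3 they numbered 4.

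Nutrient transporters moved both ways. Of 29 tested, 7 rose and 7 fell, each 24.1%, with a median of 0.09. Several sugar transporters fell. Slc5a1, the sodium-glucose cotransporter, was at 2810, 2991 and 2760 CPM against 2348, 2417 and 2348 (log2 fold change −0.27, adjusted p = 0.0104), Slc2a2 fell by 0.53 and the fructose transporter Slc2a5 by 0.55. The peptide transporter Slc15a1 (−0.23), Slc7a8 (−0.33), Slc36a1 (−0.42) and Slc13a2 (−0.44) fell too. Slc34a2, a sodium-phosphate cotransporter, was at 305, 334 and 333 CPM against 699, 817 and 848, 2.42-fold higher (log2 fold change 1.27, adjusted p = 6.67e-08). Slc28a2, a purine nucleoside carrier, was at 244, 279 and 266 CPM against 578, 555 and 527 (log2 fold change 1.06, adjusted p = 1.68e-07), but 47% of its words occur in another gene model. The sodium-proton exchanger Slc9a3 (0.78), the neutral amino acid transporter Slc6a19 (0.45), Slc7a9 (0.43), the anion exchanger Slc26a6 (0.44) and the ferroxidase Heph (0.25) rose as well. The falls numbered 4 without WT mouse 2 or Rptor fl/fl mouse 3.

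Lipid absorption genes rose more often than all genes. Of 30 tested, 11 rose (36.7%) and 1 fell, and the median was 0.24. Apob, the structural protein of chylomicrons, was at 6940, 7235 and 7515 CPM against 12490, 12290 and 11490 (log2 fold change 0.74, SE 0.06, adjusted p = 7.19e-07). The apolipoproteins Apoa4 (0.48), Apoc2 (0.49) and Apoa1 (0.27) rose, as did the sterol transporters Abcg8 (0.58), Abcg5 (0.29) and Npc1l1 (0.33), the phospholipid-remodelling enzyme Lpcat3 (0.59), the lipid droplet coats Plin2 (0.34) and Plin3 (0.43), and the retinol carrier Rbp2 (0.34). Dgat2, a triglyceride-forming acyltransferase, fell by 0.32. For Apoc2, 78.8% of the words occur in a second gene model. Without Rptor fl/fl mouse 1 the rises numbered 17, and without any other single library 8 to 11.

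Microvillus structure genes followed a like pattern, with 7 of 21 higher, 1 lower and a median of 0.16. The intermicrovillar cadherins Cdhr2 (0.48) and Cdhr5 (0.37), the bundling protein Pls1 (0.40), the membrane adaptor Baiap2l1 (0.64), Myo1d (0.40), Tmigd1 (0.37) and Actb (0.31) rose, and Baiap2l2 fell by 0.31. Cdhr2 was at 1331, 1380 and 1360 CPM against 1778, 1896 and 1999. Of 17 tight and adherens junction genes 5 rose and none fell (median 0.17). They were Cldn3, Cldn4, Ocln, Cdh1 and Epcam, with log2 fold changes of 0.23 to 0.45, and 3 were called without WT mouse 3 or Rptor fl/fl mouse 3. Of 6 keratin genes only Krt20, a marker of differentiated villus cells, rose (0.36, adjusted p = 0.00217).

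Genes with a known position along the small intestine were listed as proximal or distal. Of 8 tested proximal genes 2 fell and none rose (median −0.26), namely Slc2a2 and the transcription factor gene Gata4 (−0.33). The summed proximal level was 6421 CPM in the WT mice and 6468 in the Rptor fl/fl mice (means, n = 3 each) with overlapping groups. The call of Gata4 was lost with DESeq2, with an effective length offset, with mouse number as a block and without any one library other than Rptor fl/fl mouse 1. Of 6 distal genes 4 rose and 1 fell (median 0.32). The ileal bile acid transporter Slc10a2 was at 75.8, 82.2 and 51.5 CPM in the WT mice and at 113, 104 and 96.4 in the Rptor fl/fl mice (log2 fold change 0.65, adjusted p = 0.0073). Ceacam20 rose by 0.83, the bile acid carrier Fabp6 by 0.35 and Slc51b by 0.29. Fgf15, the hormone that ileal bile acids induce, was the distal gene that fell, from 8.85, 5.48 and 6.21 CPM to 1.65, 2.13 and 2.65 (log2 fold change −1.46, adjusted p = 0.00922). The calls of Slc10a2 and Fgf15 were lost without WT mouse 3. Without WT mouse 3, only 1 distal gene was called higher, and without Rptor fl/fl mouse 2 or 3 there were 2. WT mouse 3 had the lowest level of Fabp6, at 840 CPM, and of Slc10a2. The methods describe the whole small intestine, and the share of each segment in a library was not measured.

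Of 30 transcription factors of epithelial identity 9 rose and 2 fell (median 0.12). Hnf4g, a nuclear receptor of enterocytes, was at 511, 596 and 569 CPM against 753, 811 and 796 (log2 fold change 0.49, adjusted p = 0.000407). Prdm1 (0.99), which represses adult enterocyte genes in the neonatal gut, Bcl6 (0.92), the bile acid receptor Nr1h4 (0.54), Klf5 (0.33), Elf3 (0.33), the vitamin D receptor Vdr (0.30) and Hnf4a (0.23) rose. The hindgut and intestinal homeobox gene Cdx2 fell by 0.33, as did Gata4, but neither was called with DESeq2, with an effective length offset, with mouse number as a block or without WT mouse 1, WT mouse 3 or Rptor fl/fl mouse 2. The rises numbered 3 to 5 when any single library other than Rptor fl/fl mouse 1 was left out, with the lowest number without WT mouse 3.

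Of 41 xenobiotic metabolism genes 3 rose and 7 fell (median −0.04). Cyp3a11, the main drug-oxidising cytochrome of the gut, was at 718, 773 and 724 CPM against 1295, 1102 and 1045 (log2 fold change 0.63, adjusted p = 9.68e-05). The efflux pump Abcg2 rose by 0.59, and Cyp1a1 is given above. The 7 that fell were the efflux pumps Abcb1a (−0.53) and Abcc2 (−0.51), Maob (−0.72), Akr1c19 (−0.72), Ces2a (−0.52), Adh1 (−0.41) and Aldh1a1 (−0.39). Without Rptor fl/fl mouse 3 the rises numbered 7.

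For antigen presentation, the calls were few. Of 22 MHC class I pathway genes 4 rose and 1 fell. B2m, the light chain shared by class I molecules, was at 2124, 2318 and 2326 CPM against 3058, 3343 and 3346 (log2 fold change 0.52, adjusted p = 8.45e-05), while H2-K1, H2-D1 and H2-Q1 rose by 0.24, 0.25 and 0.46, and their transactivator Nlrc5 fell by 0.67 with overlapping groups. Of the class I genes, 6 were called higher without Rptor fl/fl mouse 1, and only 1 was so without WT mouse 2, WT mouse 3, Rptor fl/fl mouse 2 or Rptor fl/fl mouse 3. Of 9 class II pathway genes H2-Aa (0.22) and Ctss (0.25) rose, but neither was called with an effective length offset, with mouse number as a block or without WT mouse 2, WT mouse 3, Rptor fl/fl mouse 2 or Rptor fl/fl mouse 3. Of 39 interferon-stimulated genes 1 rose and 5 fell (median −0.09). Irf1 rose (0.50, adjusted p = 0.00094), and Mx2 (−1.95), Xaf1 (−0.90), Iigp1 (−0.45), Irgm1 (−0.42) and Isg15 (−0.32) fell. With DESeq2 only 1 of those falls was called, and without Rptor fl/fl mouse 2 none was.

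The ribosomal protein genes, the best known targets of mTORC1 in translation, were lower as a group. Of 81 tested, 36 fell (44.4%) and none rose, 78 had a negative log2 fold change, and the median was −0.26. Their sum was 17620, 17840 and 18510 CPM in the WT mice and 15720, 14610 and 14440 in the Rptor fl/fl mice. Rpl41, the shortest ribosomal protein, was at 286, 265 and 261 CPM against 156, 152 and 128 (log2 fold change −0.90, SE 0.09, adjusted p = 6.38e-06). Rpl18 (−0.52), Fau (−0.42) and Rpl13 (−0.42) also had small adjusted p-values. The falls numbered 57 without Rptor fl/fl mouse 1, 16 or 17 without WT mouse 3 or Rptor fl/fl mouse 2 or 3, and 22 without WT mouse 2. Ribosomal proteins have many processed copies, between which the authors' counting could split footprints.

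To show the element that links these mRNAs to mTORC1, the first 20 bases from the annotated start are printed for 6 ribosomal protein genes, read from RefSeq (GRCm38.p6), with the uninterrupted run of C and T that begins with C in capitals. The first 3 genes fell and the last 3 were not called.

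Fau, chr19:6057947-6057966, plus strand: CTTCCTCTTTCTTgactcca
Rpl35, chr2:39005112-39005131, minus strand: CTCTTTCTCTCgaaccaggc
Rps6, chr4:86857348-86857367, minus strand: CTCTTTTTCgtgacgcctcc
Rpl15, chr14:18270967-18270986, minus strand: CTTCCTTTCCTCTggcggca
Rps10, chr17:27635225-27635244, minus strand: CTTCCTTTCCagcctccgcc
Rps18, chr17:33955646-33955665, minus strand: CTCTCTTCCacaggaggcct

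A run of at least 5 such bases at the annotated start was found for 14 of 60 ribosomal protein genes with a sequence (23.3%), against 3.01% of all 27025 genes, and for 4 of the 25 that fell (16%). Annotated starts can lie some bases away from the start used in a tissue, so this is a count of letters in one position only.

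Of 26 other mRNAs known to carry a TOP tract, 4 fell and 1 rose (median −0.11). Eef1g (−0.35), Eif4b (−0.30), Impdh2 (−0.51) and the nucleolar protein gene Ncl (−0.56) fell, and Vim, an intermediate filament gene of mesenchymal cells, rose by 0.43. For Eef1g and Impdh2, 47.8% and 43.4% of the words occur in other gene models. Without Rptor fl/fl mouse 1 the falls numbered 8. Of 38 genes of the mTOR complexes and their effectors, 2 rose and 1 fell. Sesn1, a stress-induced inhibitor of mTORC1, rose by 0.72 (adjusted p = 0.000666), Lamtor1, part of the complex that anchors mTORC1 to lysosomes, rose by 0.68, and Larp1, the TOP mRNA-binding repressor, fell by 0.36. With DESeq2 neither Lamtor1 nor Larp1 was called. Lamtor1 was also lost without WT mouse 3 or Rptor fl/fl mouse 3, and Larp1 without WT mouse 1, WT mouse 2, Rptor fl/fl mouse 2 or Rptor fl/fl mouse 3. Mtor itself was at 77.1, 74.9 and 74.5 CPM against 78.7, 91.7 and 79.0 (adjusted p = 0.397). Of 36 ATF4 targets, Aldh18a1 rose (0.26) and Trib3 (−0.94) and Nupr1 (−0.95) fell (median −0.07). Aldh18a1 was not called without any one library other than Rptor fl/fl mouse 1, and Trib3 was not called with DESeq2, with mouse number as a block or without WT mouse 2, Rptor fl/fl mouse 2 or Rptor fl/fl mouse 3. ATF4 is a stress-response factor, and its target Asns was at 45.5, 47.5 and 50.4 CPM against 48.8, 47.8 and 45.4 (adjusted p = 0.848).

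Cholesterol and fatty acid synthesis genes rose. Of 32 tested, 16 rose (50%) and none fell, with a median of 0.35. Scd1, the stearoyl-CoA desaturase, was at 91.0, 73.1 and 76.5 CPM in the WT mice and at 231, 199 and 212 in the Rptor fl/fl mice (log2 fold change 1.45, SE 0.10, adjusted p = 7.78e-08), and Scd2 rose by 1.23. The sterol pathway was represented by Hmgcs1 (0.44), Fdft1 (0.53), Sqle (0.43), Cyp51 (0.50), Sc5d (0.50), Msmo1 (0.44), Mvd (0.78) and Fdps (0.39). The fatty acid enzymes Fasn, Acaca, Acly and Elovl6 rose by 0.29 to 0.55. The summed level of the whole list was 2800 to 2957 CPM against 3660 to 3932. Without WT mouse 3 the rises numbered 8, and without any other single library 12 to 17.

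Lysosome and autophagy genes rose as well, 16 of 48 (33.3%), and none fell (median 0.27). The cathepsin gene Ctsl was at 64.5, 62.6 and 69.2 CPM against 116, 114 and 110 (log2 fold change 0.77, adjusted p = 3.64e-05), and Ctsd rose by 0.54. The membrane proteins Cd63 (0.59), Lamp1 (0.37) and Lamp2 (0.39), the proton pump subunits Atp6v0a1, Atp6v0d1, Atp6v1b2 and Atp6ap1 (0.34 to 0.42), and the autophagosome proteins Gabarap (0.27) and Gabarapl2 (0.39) were among the 16. With DESeq2 11 were called, with mouse number as a block 9, and 6 to 8 without any WT mouse or without Rptor fl/fl mouse 2. Of the members named here, 33.2% of the words of Ctsd occur in another gene model.

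Few nuclear-encoded mitochondrial genes were called. Of 88 nuclear genes of the respiratory chain and ATP synthase 4 rose and none fell (median 0.02). They were Cox5a (0.34), Cox7a2 (0.31), Ndufc1 (0.46) and Uqcr10 (0.39), and the rises numbered 10 without Rptor fl/fl mouse 1 and 2 without WT mouse 3 or Rptor fl/fl mouse 3. None of 78 mitochondrial ribosomal protein genes was called by edgeR or DESeq2 (median −0.08), and 7 had an unadjusted p under 0.05. The 12 mitochondrially encoded genes had a median of −0.87, but the sum over all 13 was 298, 312 and 217 CPM against 247, 172 and 148 with overlapping groups. Of these genes 3 fell, namely mt-Nd1 (−0.93), mt-Nd3 (−2.27) and mt-Nd6 (−1.12). The fall of mt-Nd3 is uncertain, since 98.1% of its words occur in another gene model. RPL22 is a protein of cytosolic ribosomes, whereas the mitochondrially encoded mRNAs are translated inside mitochondria. The mitochondrially encoded falls numbered 10 without Rptor fl/fl mouse 1 and 8 with mouse number as a block, against 1 without WT mouse 1, WT mouse 2, Rptor fl/fl mouse 2 or Rptor fl/fl mouse 3 and with DESeq2. Of 30 heat shock proteins and chaperones 4 fell. Hspd1, the mitochondrial chaperonin, was at 479, 502 and 496 CPM against 367, 337 and 339 (log2 fold change −0.51, adjusted p = 0.000191), with 50.7% of its words shared. Pdia4, Pdia6 and Manf of the endoplasmic reticulum fell by 0.26 to 0.32. The chaperone falls numbered 11 without Rptor fl/fl mouse 1, 2 without WT mouse 1, and 1 without WT mouse 2, WT mouse 3, Rptor fl/fl mouse 2 or Rptor fl/fl mouse 3 and with DESeq2.

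The circadian clock genes were divided between a higher and a lower arm. The clock is a feedback loop in which the activators encoded by Arntl, Clock and Npas2 drive the repressors Per, Cry and Nr1d and the output factors Dbp and Tef, and the phases of the arms are opposed. Of 15 tested, 3 rose and 6 fell, and these counts were the same under every alternative run, with any single library left out included. The list median of 0.11 lies between the arms and describes neither. Dbp (chr7:45705088-45710203) was at 37.9, 45.2 and 32.7 CPM in the WT mice and at 4.61, 3.96 and 4.30 in the Rptor fl/fl mice, 8.77-fold lower (log2 fold change −3.13, SE 0.20, adjusted p = 4.24e-08). Tef was at 31.6, 28.8 and 24.3 CPM against 7.58, 7.92 and 8.72 (log2 fold change −1.71, adjusted p = 8.75e-06). Per2 (−1.40), Per3 (−1.48), Nr1d2 (−1.37) and Nr1d1 (−0.83) fell with them. The 3 that rose belong to the opposite phase. Arntl was at 21.5, 15.5 and 16.1 CPM against 44.5, 38.4 and 39.8 (log2 fold change 1.29, adjusted p = 3.64e-05), Npas2 rose by 1.53, and Nfil3, a repressor of the same sites as Dbp, was at 15.2, 10.0 and 14.3 CPM against 41.5, 38.4 and 37.0 (log2 fold change 1.56, adjusted p = 9.63e-06). Per1 was at 32.9, 27.4 and 29.4 CPM against 24.1, 21.9 and 24.5 (adjusted p = 0.171), and Clock and Cry1 overlapped between the groups. The labels give no time of day of collection, and a difference in collection time cannot be told apart from the genotype here.

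**Figure D5:**
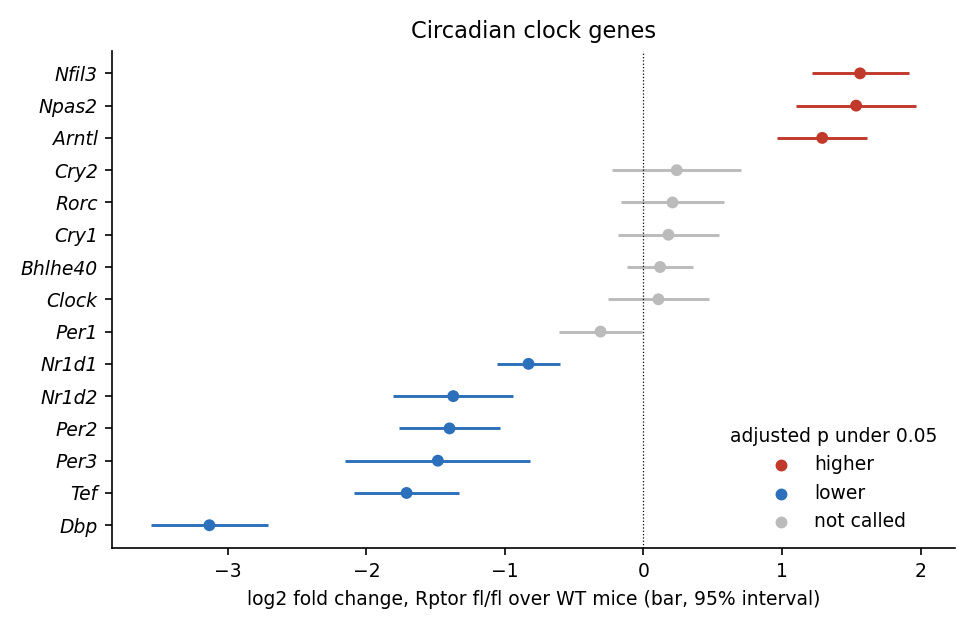
Log2 fold change (x axis, Rptor fl/fl over WT mice) with its 95% interval for the 15 tested circadian clock genes (y axis), with genes called higher in red, called lower in blue and not called in grey. Nfil3, Npas2 and Arntl lay above 1 and Dbp, Tef, Per3, Per2, Nr1d2 and Nr1d1 below 0.

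The elements through which clock factors act were looked for in the 250 bases before and 50 after each annotated start (RefSeq, GRCm38.p6). The E-box CACGTG, bound by the Arntl arm, reads the same on both strands. It was present at 3 of 12 clock genes (25%) and at 8.09% of all genes. The D-box TTANGTAA, bound by Dbp, Tef and Nfil3, was looked for on the strand of the gene only. There it was present at 1 of 12 (8.33%) and at 1.54% of all genes, and matches on the opposite strand were not counted. The Nr1d element TAGGTCA, looked for on both strands, was present at 2 of 12 (16.7%) and at 2.97% of all. The matches at genes that changed are printed to show where a gene of one arm carries the element of another, with the match in capitals. For Nfil3 the match is on the opposite strand.

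Tef, E-box, chr15:81802535-81802562, plus strand: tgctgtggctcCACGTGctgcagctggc
Tef, E-box at a second start, chr15:81811265-81811292, plus strand: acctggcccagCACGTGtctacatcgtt
Per3, D-box, chr4:151044854-151044881, minus strand: cgacccgcgcgTTATGTAAggtactcgg
Per3, D-box, chr4:151044807-151044834, minus strand: cccgcccgcggTTATGTAAcccccgccg
Arntl, Nr1d element, chr7:113207530-113207557, plus strand: aaggcagaaagTAGGTCAgggacggagg
Nfil3, Nr1d element, chr13:52981035-52981062, minus strand: gcgctcggaacTGACCTActaacacaca

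Of the other E-box matches, 1 each lay at Per1 and Cry1, which were not called. Arntl and Nfil3 rose, and Tef and Per3 fell, as given above. Such a match is a run of letters and not evidence of binding in this tissue.

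Immediate early genes, which respond within minutes to growth factors and to handling of tissue, were also higher in part. Of 16 tested, 6 rose and 1 fell (median 0.32). Jun was at 106, 86.8 and 91.3 CPM against 127, 125 and 123 (log2 fold change 0.43, adjusted p = 0.00547), and Btg2 (0.60), Zfp36 (0.40), Dusp1 (0.92), Junb (0.34) and Klf6 (0.28) rose, while Jund fell by 0.36. The rises numbered 2 without WT mouse 2 or Rptor fl/fl mouse 2 or 3, and 3 with DESeq2 or without WT mouse 3.

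Markers of cells outside the epithelium moved too, and their part in the results above was not tested. Of 18 fibroblast genes 10 rose and none fell (median 0.39). Fn1, encoding fibronectin, was at 195, 203 and 194 CPM against 374, 407 and 380 (log2 fold change 0.97, adjusted p = 3.23e-07), and Bgn, Sparc, C3 and the collagen genes Col1a1, Col1a2 and Col3a1 rose as well. The summed fibroblast list was at 2502 to 2588 CPM in the WT mice and 3305 to 3737 in the Rptor fl/fl mice. Of 14 endothelial genes 4 rose (median 0.46), with Cdh5 at 15.2, 9.59 and 13.5 CPM against 22.1, 19.5 and 20.2, and 2 were called without WT mouse 2, WT mouse 3 or Rptor fl/fl mouse 3 and 1 with DESeq2. Of 20 smooth muscle genes 1 rose and 5 fell, and the sum was 3261 to 3355 CPM against 2884 to 3292. Those falls numbered 1 to 3 when any single library was left out. Of 13 B and plasma cell genes Jchain (−0.45), Mzb1 (−0.66, with 55.2% of its words shared) and Igha (−0.27) fell. None of 15 T and natural killer cell genes or 7 neuronal and glial genes was called by edgeR or DESeq2, and 2 and 1 of them had an unadjusted p under 0.05. Pancreatic acinar genes were uneven among the WT mice, with sums of 5548, 3482 and 8131 CPM against 7037, 8090 and 8551. Of 21 tested, 2 rose, but 18 rose without WT mouse 3. Of 2 red cell genes tested, Bpgm rose by 0.67 and Car1 fell, while the defining marker Alas2 had at most 30 footprints in any library.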

How the data were processed

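Footprints were mapped by the authors to mouse transcripts (mm10, GENCODE vM21). Per the submitters' processing notes, cutadapt 1.18 and Salmon 1.1.0 were used. The authors deposited estimated counts (NumReads) for 65862 sequences a library, which were summed over 22314 genes and rounded. Effective lengths equalled length minus 249 for all but 4480 sequences, a fragment-length setting not matched to footprints, and were not used in the main test. Length-corrected levels divide CPM by the footprint-weighted mean sequence length of the gene.

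Genes were filtered with filterByExpr, scaled by TMM and tested with edgeR 4.0.16 (quasi-likelihood, R 4.3.3, limma 3.58.1) at an adjusted p of 0.05, with 3 mice a group. The steps were tested on simulated data. Alternatives were DESeq2 1.42.0, the tool of the study's methods, no filter, a threshold of 0.01, other library sizes, an effective length offset, the mouse number as a block, and leaving out each mouse. One more alternative, summing near-identical genes, was chosen after seeing the data.

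The members and the 44 gene lists were chosen with earlier results of these data known. Named by rule were Rptor, Lgr5, the 10 largest rises and falls whose groups do not overlap, and in each list up to 5 called genes with the smallest adjusted p (where none was called, the 2 most abundant). Further genes were chosen after their values were seen. Symbols starting with Igkv, Ighv, Iglv, Hba or Hbb, and the glycolysis and fetal-like lists, were left out of the genes reported. Some genes are not reported here. Shared sequence was counted as 30-base words. The organoid libraries, and a table with fold changes and p-values of the authors' own comparison, were not used. Floors and counting intervals (95%) cover counting error only.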

Additional observations from a re-analysis of the deposited data

How the results depend on the processing

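No named gene that was called changed direction under any alternative other than the summing of near-identical genes, which was not run for single genes. In that summing the Hist1h4 family had a log2 fold change of −0.21, against 5.06 for Hist1h4m by itself. The median of the clock genes, 0.11, ran from −0.30 to 0.11. The 860 genes higher and 687 lower became 629 and 415 with DESeq2, 1019 and 745 without a filter on low counts, and 470 and 326 at a threshold of 0.01. When single libraries were left out, the genes higher ranged from 517 to 1095 and the genes lower from 380 to 859, with the largest counts without Rptor fl/fl mouse 1. Library sizes without the 10 most abundant genes (862 and 685) or without other-cell, immunoglobulin and haemoglobin genes (867 and 680), an effective length offset (803 and 617) and summing of near-identical genes (859 and 673, chosen after seeing the data) moved the counts less. The mouse numbers do not pair the samples: deviations of same-numbered mice correlated at −0.066, −0.015 and 0.012, and with the mouse number as a replicate block 731 genes were higher and 574 lower. Of 175 named genes that were called, 110 were called under every alternative that gave a value, the summing left aside (Meltf, 1 of them, was not tested without Rptor fl/fl mouse 3). The 110 include Gm10031 and Gm28035, whose sums with near-identical genes were not called (edgeR adjusted p = 0.146 and 0.287). Most calls of named genes were lost at the threshold of 0.01 (53), without WT mouse 3 (51), Rptor fl/fl mouse 3 (42), Rptor fl/fl mouse 2 (41) or WT mouse 2 (39), and with DESeq2 (32). WT mouse 1, with 772077 footprints, limits the precision for genes of low level.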

Other observations

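Values outside the comparisons above are given here without explanation. Immunoglobulin V genes, left out of the genes reported, set the groups apart more than other genes did: of 156 tested, 47 were called higher and 60 lower in the Rptor fl/fl mice. Their rank correlation (Spearman, across genes, which are not independent replicates) was 0.906 to 0.972 between libraries of 1 group and 0.639 to 0.731 between groups, and the chi-square statistic per gene was 3.54 to 12.3 within and 58.4 to 186 between groups. Antibody repertoires usually differ between individual mice, and the labels do not say whether mice of a group shared a litter or whether lysates were divided. Their summed level was 10660 to 11040 CPM in the WT mice and 8649 to 8939 in the Rptor fl/fl mice.

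Haemoglobin genes, also left out, were called higher for 4 of 4 tested, with sums of 152 to 178 CPM in the WT mice and 813 to 986 in the Rptor fl/fl mice. Within 10 Mb of Rptor 18 of 152 tested genes were called (11.8%), against 13.4% of all genes, and Grin2c is among the 18. Y-linked genes were at 91.3 to 121 CPM in each of the 6 libraries and none of 4 was called.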
